A study of Mus musculus with 6 samples.

Results

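Oxidative phosphorylation subunits are the nuclear-encoded proteins of the mitochondrial respiratory chain and ATP synthase, and they were followed here in lungs of mice with ovalbumin-induced allergic inflammation. Members were chosen by name: every gene whose symbol starts with Nduf, Uqcr or Atp5, the genes Sdha to Sdhd and Cyc1, and the Cox genes numbered 4 to 8. The array carried 78 such genes, of which 68 had a value on at least 4 of the 6 arrays and were tested, among 9784 genes tested in all. Of the 68, 61 encode subunits, 6 are Ndufaf assembly factors of complex I, and 1 is a pseudogene, Ndufs5-ps. The remaining 10 genes had too few values: Ndufb10 and Cox7b2 had none, Ndufa10 and Cox6b1 had 1 each, and Ndufb4, Ndufb5, Ndufa11, Ndufb8, Ndufs4 and Ndufaf1 had 2 or 3.

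Each of the 6 arrays compared amplified lung RNA of 1 C57 mouse, sensitized and challenged with ovalbumin (OVA), with the same pool of amplified lung RNA from control C57 mice. The sources used here do not give ages, times after challenge or the number of pooled mice. The deposited value is a log ratio of the 2 channels per spot. It was read as log2, and its direction is not stated, so signs are printed as deposited, and whether a positive ratio means more RNA in the OVA mice or in the pool is not known. If the logarithm were natural, folds would be larger: Cox8b would be 5.86-fold rather than 3.41-fold apart from the pool. The pool is 1 sample, so the spread between control mice does not enter any test, and a dye effect of a single gene cannot be told apart from a difference. In whole lung RNA, fewer cells of a type and less RNA per cell cannot be told apart either.

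The respiratory chain passes electrons from NADH through complex I, and from succinate through complex II, to ubiquinone, then through complex III and cytochrome c to complex IV, where oxygen is reduced. Complexes I, III and IV pump protons across the inner mitochondrial membrane, and complex V, the ATP synthase, uses the gradient to make ATP. Several complex IV subunits exist in pairs of isoforms, 1 expressed in most tissues and 1 restricted to a few. Cox6a2, Cox7a1 and Cox8b belong to striated muscle, the latter pair also to brown fat, while Cox4i2 is known for its expression in lung.

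The arrays measured between 10922 and 13132 probes, and the SD of the log ratio over probes was 0.21 in mouse 3 against 0.32 to 0.47 in the others. Mouse 3 therefore stood apart, and values without it are given where leaving it out changed whether a subunit passed and for Cox8b and Cox7a1. Ratios carry no level, so the lung label could not be checked. Enough values were present for 7 club cell genes and 5 ciliated cell genes, but also for 17 heart muscle genes.

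Most subunit genes had a positive ratio, and none passed the threshold on the negative side. Of 61 subunits, 24 had an adjusted p under 0.05 (limma against a ratio of 0, Benjamini-Hochberg over all 11639 probes tested), all positive, which is 39.3%. Among all genes tested 25.4% passed, 12.6% on the positive side and 12.8% on the negative. The mean ratio was above 0 in 53 of the 61, against 49.1% of all genes. The median over subunits was 0.17, a 1.12-fold difference, while the median over all genes was -0.0035. The differences were mostly small: 3 of the 61 subunits, Cox8b, Cox7a1 and Cox4i1, passed and were at least 1.5-fold apart. Of all 9784 genes tested, 525 did so on either side, and 1.94% on the positive side. Positive values in every mouse with a value were found for 18 subunits, compared with 16.1% of all genes, and negative values in every mouse for 1, Atp5md. Among all genes 30.5% had the same sign in every mouse.

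The median over subunits was above 0 in each mouse. It was 0.07 in mouse 1, 0.29 in mouse 2, 0.10 in mouse 3, 0.18 in mouse 4, 0.26 in mouse 5 and 0.25 in mouse 6, while the median over all genes lay between -0.003 and 0.0045. Mice 1 and 3 had the lowest values, and no mouse lay at or below the median of all genes. The count of calls depended on single mice. It was 22 without mouse 1 and 24 without mouse 3, but 11 without mouse 2, 11 without mouse 4, 13 without mouse 5 and 9 without mouse 6. Over all probes the share of calls also fell in these fits, to 11.8%, 11.4%, 17.6% and 14.7%, beside 18%, 18%, 21.3% and 14.8% of the subunits. Whichever mouse was left out, 8 subunits stayed past the threshold: Cox8b, Cox7a1, Cox4i1, Cox4i2, Atp5j2, Atp5k, Ndufs3 and Ndufs7.

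**Figure D1:**
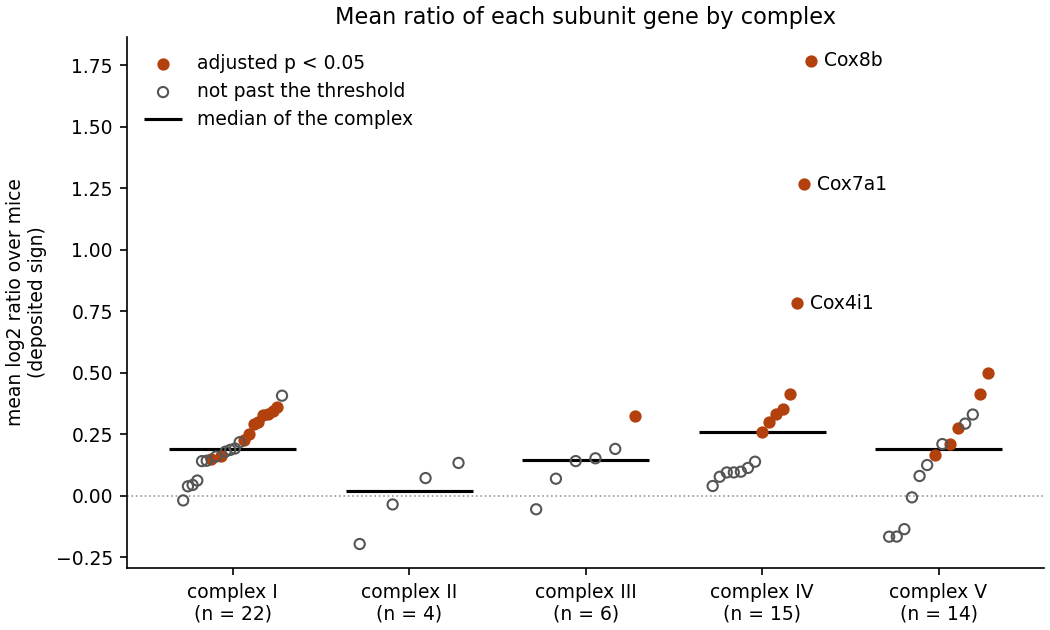
Mean log2 ratio over mice (vertical axis, deposited sign) of the 61 subunit genes, ordered by value within each complex; filled points passed an adjusted p of 0.05 in limma, open points did not, and the line is the median of the complex. All 15 complex IV genes lie above 0, with Cox8b, Cox7a1 and Cox4i1 at the top, while complex II has no filled point.

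The complexes differed in how many members passed, a difference that was not tested. The share of all genes was 25.4%, or 12.6% on the positive side. With 4 and 6 genes, complexes II and III are too small to set apart from it. Complex I had 10 of 22 genes past the threshold and a median of 0.19, complex II 0 of 4 and 0.02, complex III 1 of 6 and 0.15, complex IV 8 of 15 and 0.26, and complex V 5 of 14 and 0.19. Without the 4 tissue-specific isoforms the median of complex IV was 0.11, with 4 of 11 genes past the threshold. The spread of these medians between mice, as an SD over the 6 mice, was between 0.08 for complex III and 0.11 for complexes IV and V. The medians of complexes I, III and V lay within that spread of each other, and that of complex IV lay within its own SD of those of complexes I and V.

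**Figure D2:**
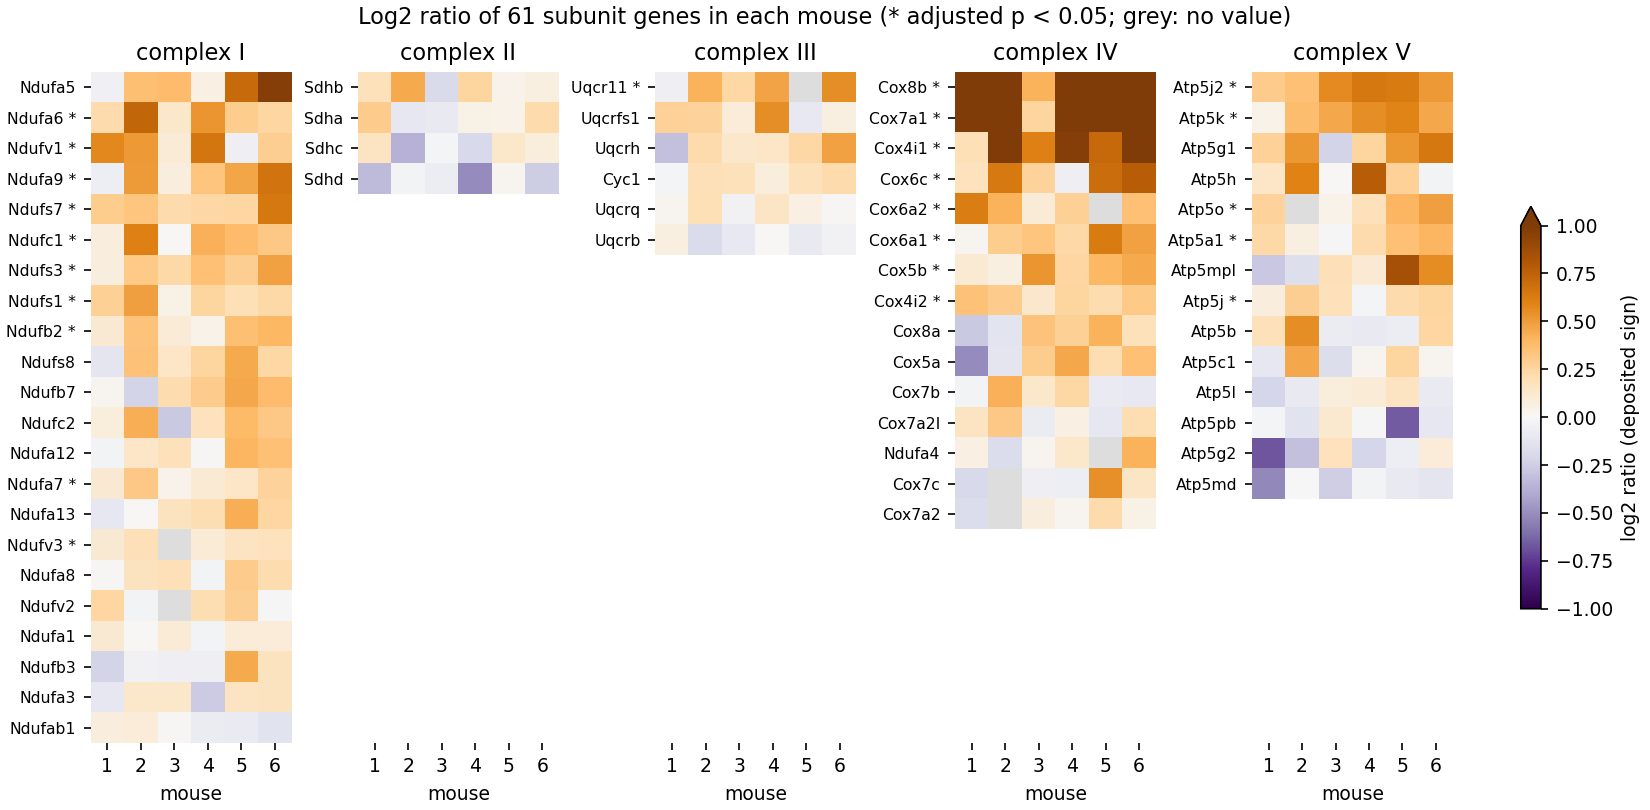
Log2 ratio (colour, deposited sign, saturated at 1) of the 61 subunit genes in each of the 6 mice, 1 panel per complex, with genes ordered by mean ratio; an asterisk marks an adjusted p under 0.05 in limma and grey a missing value. Cox8b and Cox7a1 are above 1 in 5 of 6 mice, and in mouse 3 they are at 0.42 and 0.25.

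The largest ratios of the 61 subunits were those of Cox8b and Cox7a1, complex IV isoforms of striated muscle. Cox8b, the muscle form of the smallest complex IV subunit family, had log2 ratios of 2.23, 2.65, 0.42, 1.92, 1.23 and 2.15 in mice 1 to 6. All 6 were positive, and mouse 3 was lowest. Its mean of 1.77 ± 0.81 (SD, n = 6) is a 3.41-fold difference (limma, adjusted p = 0.00681), rank 5 among the 9784 genes from the highest, and the mean was 2.04 without mouse 3. That ratio was already known when the members were chosen. Its counterpart Cox8a, expressed in most tissues, was at -0.27, -0.13, 0.34, 0.28, 0.42 and 0.18, with a mean of 0.14 ± 0.28 that did not pass (adjusted p = 0.329). Within each mouse Cox8b was above Cox8a, by 0.08 in mouse 3 and by 0.81 to 2.78 in the others.

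Cox7a1, the muscle form of subunit 7a, had ratios of 1.58, 1.75, 0.25, 1.63, 1.13 and 1.26. All were positive, and again mouse 3 was far below the rest. The mean was 1.27 ± 0.55 (n = 6), 2.40-fold apart (adjusted p = 0.00611, rank 23 of 9784), and 1.47 without mouse 3. Cox7a2, the widely expressed form, was at -0.18, 0.08, 0.03, 0.22 and 0.05 in the 5 mice with a value and did not pass (mean 0.04 ± 0.14, adjusted p = 0.676). The difference between the isoforms was 1.13 ± 0.63 on the log2 scale and above 0 in 5 of 5 mice (exact sign-flip permutation, two-sided p = 0.0625, the smallest that 5 mice allow; 0.0938 adjusted over 3 pairs).

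The other pairs did not follow this order. Cox6a2, the muscle form of subunit 6a, was at 0.62, 0.42, 0.09, 0.28 and 0.35 in the 5 mice with a value, mouse 5 being the one without (mean 0.35 ± 0.19, adjusted p = 0.022). Its widely expressed counterpart Cox6a1 was at 0.02, 0.30, 0.34, 0.23, 0.63 and 0.48 (mean 0.33 ± 0.21, adjusted p = 0.0216). Both passed, and their difference was 0.08 ± 0.33, above 0 in 3 of 5 mice (exact permutation p = 0.75, also after adjustment). The difference was -0.05 without mouse 1.

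Cox4i1, the widely expressed form of the regulatory subunit 4, was at 0.20, 1.03, 0.60, 0.97, 0.71 and 1.17. Mouse 1 was lowest, and mouse 3 lay among the others. Its mean of 0.78 ± 0.35 (n = 6, 1.72-fold, adjusted p = 0.00711) exceeded that of Cox4i2, the lung isoform, which was at 0.35, 0.30, 0.13, 0.26, 0.22 and 0.31 with a mean of 0.26 ± 0.08 (adjusted p = 0.00706). Cox4i2 was below Cox4i1 in 5 of 6 mice, with a mean difference of -0.52 ± 0.36 (exact permutation p = 0.0625, adjusted p = 0.0938). The smallest p that 6 mice allow is 0.0312. In this pair, then, the isoform of few tissues had the smaller mean ratio. With these numbers of mice, no pair could reach an adjusted p under 0.05 over the 3 pairs, whatever its values. The permutation test therefore cannot decide whether the isoforms of a pair differ.

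**Figure D3:**
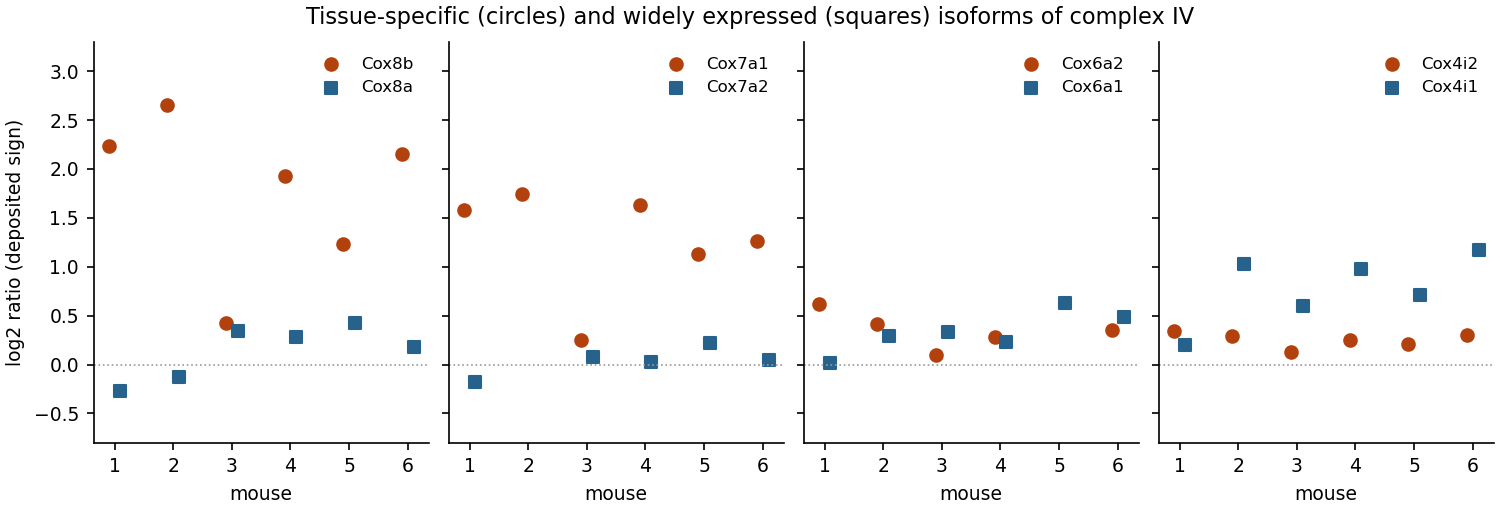
Log2 ratio (vertical axis, deposited sign) in each mouse (horizontal axis) of 4 pairs of complex IV isoforms, the tissue-specific form as circles and the widely expressed form as squares. Cox8b and Cox7a1 stand above their counterparts except for a small gap in mouse 3, Cox6a2 and Cox6a1 overlap, and Cox4i1 stands above Cox4i2 in all mice but mouse 1.

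Among the other complex IV subunits, Cox5b and Cox6c, small nuclear-encoded subunits, passed. Cox6c had a mean of 0.41 ± 0.33, with mouse 4 at -0.05 and mouse 6 at 0.78 (adjusted p = 0.0386), and did not pass without mouse 2, 5 or 6. Cox5b lay between 0.06 in mouse 2 and 0.53 in mouse 3 (mean 0.30 ± 0.19, adjusted p = 0.0233). The remaining 7 genes, Cox7a2 and Cox8a among them, did not pass. Cox5a, the subunit that binds a thyroid hormone metabolite, ranged from -0.51 in mouse 1 to 0.46 in mouse 4 (mean 0.11). Cox7b was at 0.10, Cox7c at 0.08 and Cox7a2l, a factor that joins complexes III and IV, at 0.09. Ndufa4, which is named after complex I but is found in complex IV, was also at 0.09. Cox5a, Cox8a, Cox7a2 and Cox7c were each negative in mouse 1, where Cox8b and Cox7a1 were at 2.23 and 1.58. In that mouse 6 of the 11 widely expressed complex IV genes were positive, and their median was 0.016.

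Marker lists of tissues that use the muscle isoforms are given beside them, with no test of whether they moved together. Among all genes 25.4% passed, 12.6% on the positive side. Heart muscle genes had 10 of 17 past the threshold, all positive, with a median of 0.64, and brown fat genes 4 of 6, all positive, with a median of 0.75. The lists are not separate: Fabp3 is among the called genes of both, and Ckm among those of the heart and skeletal muscle lists. In mice 1 to 6 the median of the heart list was 1.36, 1.14, 0.07, 0.90, 0.18 and 0.60, and that of the brown fat list 0.75, 0.34, 0.17, 0.80, 0.56 and 0.95. Both lists, like Cox8b and Cox7a1, were lowest in mouse 3, the array with the least spread over probes. This was not particular to them: the club cell, ciliated cell and citric acid cycle lists were also lowest there, at 0.22, 0.0055 and -0.063. In mouse 5 the heart list was at 0.18 and the brown fat list at 0.56, and Cox8b and Cox7a1 were at 1.23 and 1.13. Ucp1, which makes brown fat mitochondria produce heat, had a mean of 1.32 ± 0.27 and the brown fat lipid droplet protein Cidea at 2.25 ± 0.69, while Zic1 and Dio2 were at 0.01 and 0.02. The heart list genes with the largest means were Myl4 at 1.60, Nppb at 1.45, Myh6 at 1.44 and Fabp3 at 1.26, all past the threshold. Myh7, picked out after its values were seen, was at 0.07. Adipocyte genes had 3 of 6 past the threshold, all positive, and skeletal muscle genes 3 positive and 2 negative of 8, with a median of 0.12 that was lowest in mouse 6 at 0.03. Mylpf and Atp2a1 were the negative ones, at -1.10 and -1.30. The positive ones were Tnnt3 at 0.71, Eno3 at 0.64 and Ckm, so the list was split. The part of these tissues in the ratios of the subunits was not tested.

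The 57 subunits other than the 4 tissue-specific isoforms had a median of 0.16, with 20 past the threshold (35.1%). Their medians were 0.07, 0.24, 0.10, 0.15, 0.25 and 0.25 in mice 1 to 6. They were lowest in mouse 1, where the heart and brown fat lists had medians of 1.36 and 0.75. They were highest, and nearly equal, in mice 2, 5 and 6. There the heart list was at 1.14, 0.18 and 0.60, and the brown fat list at 0.34, 0.56 and 0.95. The relation to these lists was not tested. Club cell genes, the secretory epithelium of the airways, had 6 of 7 past the threshold, all positive, with medians between 0.22 in mouse 3 and 2.11 in mouse 1. Ciliated cell genes had 3 positive and 1 negative of 5, and macrophage genes 1 negative of 4, the cytoplasmic marker Aif1 at -1.80. Among all genes 25.4% passed, 12.6% on the positive side and 12.8% on the negative. The part of epithelial cells and macrophages was not tested either.

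**Figure D4:**
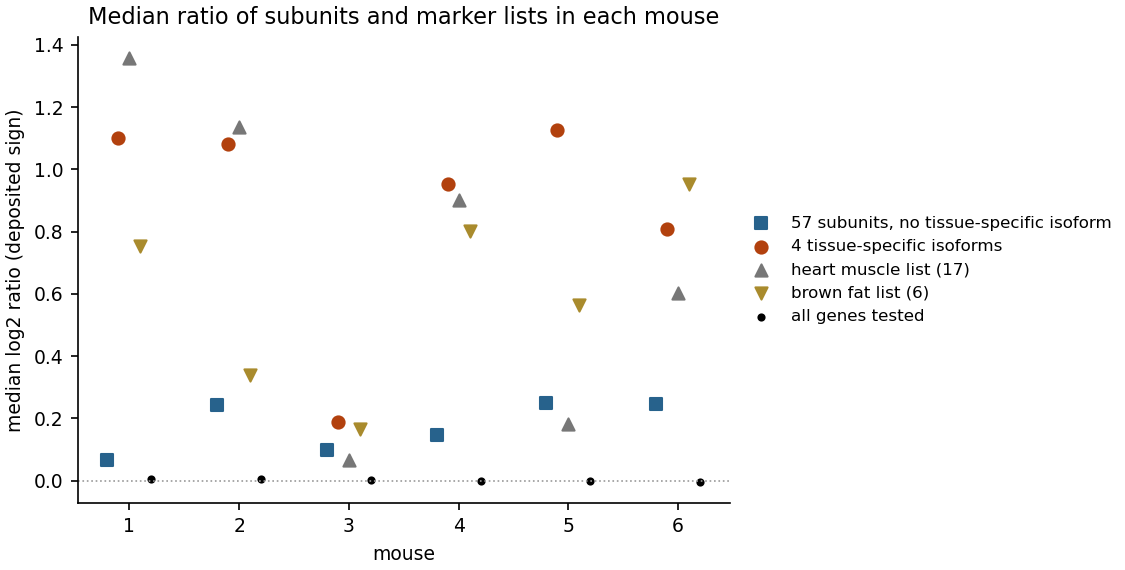
Median log2 ratio (vertical axis, deposited sign) in each mouse of the 57 subunits without tissue-specific isoforms, the 4 tissue-specific isoforms (3 in mouse 5, where Cox6a2 has no value), the heart muscle and brown fat lists, and all genes tested. The 57 subunits stay between 0.07 and 0.25, above all genes in each mouse, and the heart list runs from 0.07 in mouse 3 to 1.36 in mouse 1.

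In complex I, the NADH dehydrogenase, 21 of 22 genes had a mean above 0. The core subunits, which together carry the flavin and iron-sulfur clusters, had a median of 0.27. Of these, 4 of 6 were past the threshold, all positive, beside 12.6% of all genes on that side. Ndufs7, which holds the last iron-sulfur cluster before ubiquinone, was at 0.29, 0.33, 0.22, 0.24, 0.24 and 0.65. All mice were positive and 5 of them lay between 0.22 and 0.33, with mouse 6 apart (mean 0.33 ± 0.16, adjusted p = 0.0113). Ndufs3 was at 0.07, 0.30, 0.23, 0.36, 0.28 and 0.48, positive in all mice and lowest in mouse 1 (mean 0.29 ± 0.14, adjusted p = 0.0116). Ndufv1, the subunit that binds NADH and flavin, ranged from -0.05 in mouse 5 to 0.65 in mouse 4 (mean 0.35 ± 0.28, adjusted p = 0.0419). Ndufs8 and Ndufv2 did not pass, at 0.22 and 0.14.

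Ndufs1, the largest core subunit, passed through 1 of its 2 probes. That probe had ratios between 0.05 in mouse 3 and 0.49 in mouse 2 (mean 0.25 ± 0.14, adjusted p = 0.0194). The other was at -0.02 ± 0.20 (adjusted p = 0.855), with 4 of 6 mice negative, so the call does not hold for the gene as a whole. Probes also differed for Ndufa3, at 0.04 and -0.16, for Ndufc2, at 0.19 and 0.008, and for Uqcrq, at 0.07 and -0.04. None of these 6 probes passed with all mice. Without mouse 3, Ndufc2 passed at 0.28 (limma, adjusted p = 0.0212).

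The supernumerary subunits of complex I, which surround the core and carry no redox centre, had a median of 0.17. Past the threshold were 6 of 16 (37.5%), all positive, beside 12.6% of all genes on that side. They were Ndufa6 at 0.36 ± 0.22 (adjusted p = 0.0194), Ndufa9 at 0.33, Ndufc1 at 0.30, Ndufb2 at 0.23, Ndufa7 at 0.16 and Ndufv3 at 0.15. Ndufv3 had the least spread, an SD of 0.04 over the 5 mice with a value. Ndufa5 had the highest mean of the complex, 0.41, without passing (adjusted p = 0.0601): its mice ranged from -0.04 in mouse 1 to 0.97 in mouse 6. The lowest was Ndufab1, the mitochondrial acyl carrier protein, at -0.02 with 3 mice on either side of 0. Ndufa12, Ndufa13, Ndufa8, Ndufb7, Ndufa1 and Ndufb3 were between 0.04 and 0.19 without passing.

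Of the assembly factors, which help build complex I but are not part of it, Ndufaf2 at 0.15 ± 0.09 and Ndufaf3 at 0.21 ± 0.08 passed (limma, adjusted p = 0.036 and 0.0125), each positive in 6 of 6 mice. Ndufaf4 was negative in 6 of 6 mice at -0.13 ± 0.09 without passing (adjusted p = 0.0714). Ndufaf5, Ndufaf6 and Ndufaf7 were at -0.03, 0.06 and -0.05. The median of the 6 was 0.01, close to that of all genes. With 2 of 6 past the threshold, beside 12.6% of all genes on the positive side, the group is too small to set apart. The probe of Ndufs5-ps was at 0.47 ± 0.33 (adjusted p = 0.0245), with mice 4 to 6 at 0.68 to 0.87 and mice 1 to 3 at 0.14 to 0.23. It may take up transcripts of the parent gene Ndufs5, a complex I subunit, so its identity is uncertain.

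Complex II, succinate dehydrogenase, which also works in the citric acid cycle, had no gene past the threshold. At an unadjusted p under 0.05 there was 1, Sdhd. Sdha, the flavin subunit, was at 0.07 ± 0.16 and Sdhb, the iron-sulfur subunit, at 0.13 ± 0.22. The membrane anchors Sdhc and Sdhd were at -0.04 ± 0.21 and -0.20 ± 0.21. Sdhd had the lowest mean of all 61 subunits. It was negative in 5 of 6 mice, at -0.33, -0.03, -0.07, -0.52, 0.02 and -0.25 (adjusted p = 0.0978). The median of the complex, 0.02, was -0.02 without mouse 1 and -0.01 without mouse 6, so it has no settled sign.

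In complex III, ubiquinol-cytochrome c reductase, Uqcr11 alone passed, at 0.33 ± 0.24 with 4 of 5 mice positive (limma, adjusted p = 0.0453, and 0.0657 without mouse 3). Uqcrfs1, the Rieske iron-sulfur protein, was at 0.19, Uqcrh at 0.15 and Uqcrb, which had the lowest mean, at -0.06. Cyc1, the subunit that carries cytochrome c1, was printed in 17 spots on each array, and their means were -0.02, 0.19, 0.19, 0.08, 0.19 and 0.22. Mouse 1 was at 0 within the spread of its spots, and the other five were positive. The mean over mice was 0.14 ± 0.09 (n = 6, 1.10-fold) and lay next to the threshold (adjusted p = 0.052). It passed without mouse 1 (limma, adjusted p = 0.0302), with the median of the spots in place of the mean (0.044), with array weights (0.0298), and with scaled (0.0446) or quantile-normalized arrays (0.0445). It did not pass without mouse 2, 3, 4, 5 or 6 (adjusted p between 0.096 and 0.137) or with unmoderated variances (0.0685).

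The repeated spots of Cyc1 show how far 1 sequence varied within an array. The SD over the 17 spots was between 0.07 in mouse 4 and 0.15 in mouse 3, compared with 0.09 between mice after averaging. For a gene with a single spot, differences of that size lie within the variation between spots, and the median SD between mice of the 61 subunits was 0.21. The spots in positions 9 to 12 by probe number, picked out after their values were seen, differed from the other 13 by -0.27 to -0.14 in mice 1, 2, 4, 5 and 6, and by 0.23 in mouse 3. Over the mice these 4 spots averaged 0.02 and the other 13 averaged 0.18. The part of spot position in the ratios of the subunits was not tested.

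**Figure D5:**
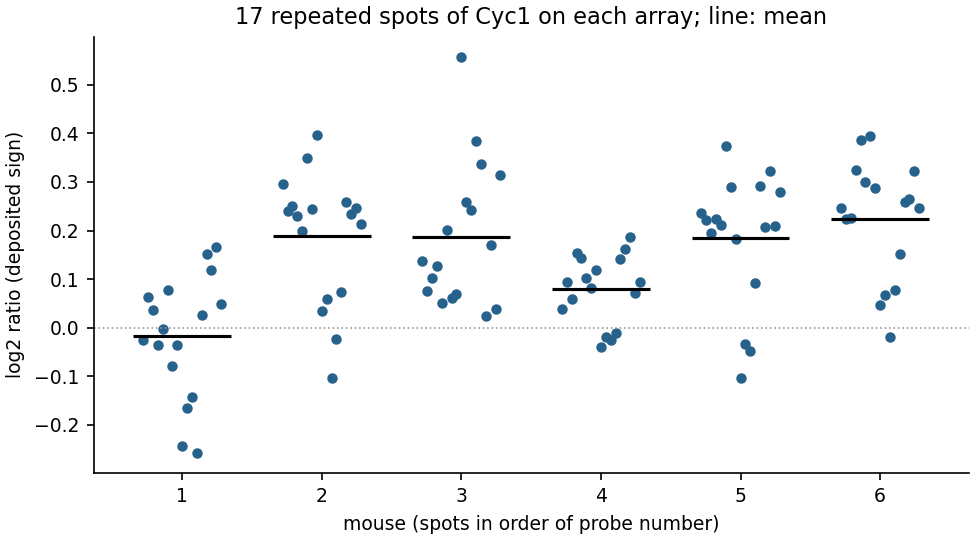
Log2 ratio (vertical axis, deposited sign) of the 17 repeated Cyc1 spots on each array, left to right by probe number, with the mean as a line. The spots in positions 9 to 12 dip below the rest in 5 mice and stand above the rest in mouse 3.

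In complex V, the genes past the threshold came from each portion of the enzyme. Atp5j2, a small subunit of the membrane portion, had ratios of 0.30, 0.35, 0.57, 0.64, 0.63 and 0.51. Every mouse was positive, mouse 3 included, and the mean of 0.50 ± 0.14 (n = 6, 1.41-fold) had the lowest adjusted p of all subunits (0.00351). Atp5k, subunit e, which takes part in pairing ATP synthases into dimers, was at 0.04, 0.37, 0.45, 0.55, 0.59 and 0.46, with mouse 1 far below the rest (mean 0.41 ± 0.20, adjusted p = 0.00979). Atp5o, the stalk subunit that confers oligomycin sensitivity, was positive in 5 of 5 mice (0.27 ± 0.18, adjusted p = 0.0369). Atp5j, coupling factor 6, was at 0.17 ± 0.12 and the catalytic-head subunit Atp5a1 at 0.21 ± 0.16, each positive in 5 of 6 mice (adjusted p = 0.0477 and 0.0462). Without mouse 3, Atp5j did not pass (limma, adjusted p = 0.0843).

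The catalytic subunit Atp5b did not pass, at 0.12 ± 0.25 with 3 mice on either side of 0, nor did the central stalk subunit Atp5c1, at 0.08. Atp5g1 and Atp5g2 encode the same mature subunit c, whose copies form the rotating ring, and they had means of opposite sign. Atp5g1 was at 0.27, 0.52, -0.22, 0.25, 0.52 and 0.65 (mean 0.33 ± 0.31, adjusted p = 0.0636; without mouse 3, 0.44 and 0.00662) and Atp5g2 at -0.68, -0.31, 0.17, -0.22, -0.06 and 0.09 (mean -0.17 ± 0.31, adjusted p = 0.292). Atp5g1 was the higher in 5 of 6 mice, by 0.50 ± 0.47 on average, and mouse 3 was the exception. The pair was picked out after its values were seen, and the difference was not tested. Atp5md, a small membrane subunit, was negative in 6 of 6 mice, between -0.52 and -0.002 (mean -0.17 ± 0.19, adjusted p = 0.128). Atp5pb was at -0.14, Atp5l at -0.01, Atp5h at 0.29 and Atp5mpl at 0.21, the last with an SD of 0.43 and values from -0.28 in mouse 1 to 0.84 in mouse 5.

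The other mitochondrial lists are given beside the 25.4% of all genes that passed, 12.6% on the positive side and 12.8% on the negative. The differences between lists were not tested. The citric acid cycle and pyruvate dehydrogenase list had 5 of 16 genes (31.2%) past the threshold, all positive, and a median of 0.17. Pyruvate carboxylase, Pcx, was at 0.95 ± 0.32, the pyruvate dehydrogenase subunits Pdhb and Dlat at 0.84 and 0.51, and Idh3g, a subunit of isocitrate dehydrogenase, at 0.27. Electron carriers and exchangers had 2 positive and 2 negative of 11 (36.4%). The positive ones were Slc25a4, the ADP/ATP carrier of heart and muscle, at 0.41 ± 0.22, and the pyrimidine synthesis enzyme Dhodh at 0.21. The negative ones were the outer membrane channels Vdac1 at -0.40 ± 0.22 and Vdac2 at -0.23, each negative in 6 of 6 mice. Cycs, cytochrome c itself, was at 0.06 ± 0.18.

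Assembly factors outside the Nduf family had 2 of 19 (10.5%) past the threshold, both positive, beside 12.6% of all genes on that side. They were Higd2a, a factor of supercomplex assembly, at 0.24 and Oxa1l, which inserts proteins into the inner membrane, at 0.24. The median of the list was 0.009. Regulators of mitochondrial biogenesis had 2 of 10 (20%), both positive, a list too short to set apart from the share of all genes. They were the coactivator Ppargc1a at 0.25 ± 0.07 and the nuclear receptor Esrra at 0.58 ± 0.27, and the median of the list was -0.01. Ppargc1a is also in the brown fat list. Ubiquinone synthesis had 2 positive and 1 negative of 6: Coq9 at 0.54, Coq8b at 0.18 and Pdss2, which makes the side chain of ubiquinone, at -0.49 ± 0.14, negative in 6 of 6 mice.

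Many genes of oxidative phosphorylation are known targets of the transcription factors NRF1 and of the ETS family, and the promoters of the members were searched for their motifs. RefSeq promoter sequences (GRCm38.p6) were found for 50 of the 61 subunits, and the 250 bases before the transcript start of the first entry of each gene were read on both strands. The palindrome-like core motif of NRF1 was found in 8 of 50 (16%) and in 3.86% of 27025 promoters of all genes. The ETS motif CCGGAAG was found in 8 of 50 (16%) and in 7.05% of all. The E-box CAGCTG, bound by muscle regulators among others, was found in 4 of 50 (8.0%) against 12.8%, and TATAAA in 6 of 50 (12%) against 13.0%. No matches of different motifs overlapped in these 50. Of the 18 subunits with a promoter that passed the test, 2 held the NRF1 motif and 3 the ETS motif. Of the 32 that did not pass, 6 held the NRF1 motif and 5 the ETS motif. A match is a description of the letters and not a site.

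The 8 promoters with an NRF1 match are shown. Their genes ran from Atp5k at 0.41 and Ndufa5 at 0.41 to Atp5g2 at -0.17 and Sdhd at -0.20. They do not reach the top of the range: the promoters of Cox8b at 1.77 and Cox7a1 at 1.27 held no NRF1 match. Each line gives the strand of the gene 5′ to 3′, with the motif in capitals and 15 bases on either side. Cox6a1 has 2 matches and Sdha has 3, of which the one farthest from the start is printed. In Ndufa8 the motif reads on the opposite strand.
Atp5k, chr5:108434425-108434464, minus strand: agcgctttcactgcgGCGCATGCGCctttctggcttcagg
Ndufa5, chr6:24527692-24527731, minus strand: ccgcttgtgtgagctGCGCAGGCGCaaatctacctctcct
Cox6a1, chr5:115349096-115349135, minus strand: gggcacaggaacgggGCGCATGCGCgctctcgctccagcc
Atp5h, chr11:115420036-115420075, minus strand: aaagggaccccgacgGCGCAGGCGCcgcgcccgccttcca
Ndufa8, chr2:36049344-36049383, minus strand: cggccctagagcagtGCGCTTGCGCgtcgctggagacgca
Sdha, chr13:74350314-74350353, minus strand: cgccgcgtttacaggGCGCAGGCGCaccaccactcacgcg
Atp5g2, chr15:102671065-102671104, minus strand: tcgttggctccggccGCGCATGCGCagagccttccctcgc
Sdhd, chr9:50603904-50603943, minus strand: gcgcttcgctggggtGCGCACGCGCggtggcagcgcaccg
Cox8b and Cox8a, the pair of isoforms with the largest difference in ratio, are shown for comparison over the whole window of 250 bases, with matches of any of the 4 motifs in capitals. Cox8b held 1 match, an E-box, and Cox8a held none. Their shares of G and C were 47.2% and 52.8%.
Cox8b, chr7:140900447-140900696, minus strand: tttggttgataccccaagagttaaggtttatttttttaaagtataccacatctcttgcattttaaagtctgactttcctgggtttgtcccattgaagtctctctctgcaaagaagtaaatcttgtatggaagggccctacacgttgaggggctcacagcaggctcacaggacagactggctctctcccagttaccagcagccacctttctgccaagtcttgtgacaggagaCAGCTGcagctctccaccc
Cox8a, chr19:7217617-7217866, minus strand: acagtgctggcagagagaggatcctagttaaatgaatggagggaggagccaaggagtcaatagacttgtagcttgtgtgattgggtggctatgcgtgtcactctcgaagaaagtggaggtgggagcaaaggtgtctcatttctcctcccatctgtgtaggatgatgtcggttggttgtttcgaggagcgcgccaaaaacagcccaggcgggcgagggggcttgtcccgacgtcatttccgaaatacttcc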

How the data were processed

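The authors deposited 1 log ratio per spot and array, read here as log2; per the labels, each array holds an OVA mouse and the control pool. How spots were scanned, filtered and normalized is not given in the sources used here. Each array was centred on its median over 8663 probes measured on all arrays (medians between -0.012 and 0.008). The 17 spots of each of 10 repeated sequences were averaged to 1 row, and 4 plant rows were left out. Symbols came from the platform annotation (14722 of 17280 rows had 1 symbol, 1 several and 2557 none), updated through RefSeq for 14445. Rows with values on at least 4 arrays were compared with 0 by limma (version 3.58.1, R version 4.3.3; intercept alone, eBayes, two-sided, Benjamini-Hochberg at 0.05). A gene stands on its probe with the most values, then the lowest number. Isoform pairs had an exact sign-flip permutation test over mice, in which no adjusted p under 0.05 was possible. The fit was tested on simulated data. Named were all members past the threshold, the isoforms, the highest and lowest of each complex, and up to 4 called genes per list; further members were named to account for all, and Zic1, Dio2, Myh7 and Cycs were chosen after their values were seen. Members and lists were chosen with earlier results of these data known. Plots used matplotlib 3.10.9 and Python 3.11.15.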

Additional observations from a re-analysis of the deposited data

Results flagged for a closer look

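In 2 of 73 values screened, 1 mouse lay apart from the rest by Dixon's criterion for the gap to the nearest mouse over the whole range, where chance flags about 1 in 20. Ndufs7 was at 0.645 in mouse 6, and the next highest mouse was at 0.331. Atp5pb, the b subunit of the peripheral stalk of ATP synthase, was at -0.66 in mouse 5, with the next lowest at -0.139.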

How the results depend on the processing

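No paired analysis was possible because all 6 mice form 1 group. Of 24 subunits past the threshold, 8 passed whichever mouse was left out and under each alternative that tested them (Atp5k and Cox4i2 were not tested without probes near a larger one; a 1.5-fold floor, which 3 of the 24 reach, is not counted), and 54 of 61 kept the sign of their mean in all alternatives; no subunit was called negative in any. The subunit count was 9 with unmoderated variances, 13 of 24 tested without probes near a larger one, 3 with a 1.5-fold floor, and between 9 and 24 with a mouse left out. Over all probes it was 1443 with unmoderated variances (12.4%, against 14.8% of subunits). Without probes near a larger one it was 1786 of 3725 tested (47.9%, against 54.2% of subunits). It was 568 with a 1.5-fold floor and 1325 to 3040 with a mouse left out, against 2835. The count was 24 of 60 without probes near one 2-fold apart, an alternative chosen after seeing the data. Leaving out a mouse, medians were 0.157 to 0.223 for complex I, -0.0241 to 0.0503 for II, 0.105 to 0.173 for III, 0.240 to 0.266 for IV and 0.145 to 0.200 for V, and IV was 0.113 without tissue-specific isoforms. Isoform differences were -0.659 to -0.456 (Cox4i), -0.0503 to 0.162 (Cox6a), 0.974 to 1.37 (Cox7a) and 1.40 to 1.94 (Cox8). Cyc1 passed with scaled (0.149) or quantile-normalized arrays (0.155), array weights (0.146) and the median of its spots (0.153), and was 0.124 to 0.172 with a mouse left out. Signs changed for Atp5l with scaled (0.0105) and quantile-normalized arrays (0.0103), array weights (0.0149), and without mouse 1 (0.0354), 2 (0.0096) or 6 (0.0084), with -0.0408 as the lowest value with a mouse left out; for Cox7a2 (-0.0057, up to 0.094 without another mouse), Cox7c (-0.0390, up to 0.147) and Ndufb3 (-0.0370, up to 0.0968) without mouse 5; for Ndufab1 without mouse 6 (0.0038, down to -0.0414), Sdhc without mouse 2 (0.0310, down to -0.074) and Ndufa3 with gene means (-0.0591). The causes were not tested. The 6 arrays and 1 control pool limit the precision.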
